A study of Mus musculus with 12 samples.

Results

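Among the probes of a mouse expression array that belong to the manufacturer's catalogue (IDs starting A_), 113 of 51691 were highest at 2 weeks of a colitis and colon cancer protocol. The array carried 145548 different probes in all, the rest being custom probes. The 113 were chosen on the deposited log2 values: the 2-week mean lay at least 1 above the means at 0, 1 and 10 weeks, every 2-week array lay above every other array, and the 2-week mean was at least 6. Their height at 2 weeks was therefore fixed by the choice, so it is described here and not tested.

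The study followed colorectal tissue of male C57BL/6 mice through the AOM/DSS model on 1-colour (Cy3) arrays, with 3 arrays at each of 4 times. The 0-week arrays came from untreated mice, and all other mice had received azoxymethane (AOM) at 10 mg/kg. At 1 week the mice had AOM alone, at 2 weeks AOM followed by DSS (dextran sulfate sodium, 2% in the drinking water), and at 10 weeks AOM with repeated DSS cycles. The tissue at 1 and 2 weeks is labelled colitis, although by the stated schedule DSS started only after 1 week, and the tissue at 10 weeks is labelled tumour. Nothing in the labels says that each array held a separate animal, so the p-values below measure the spread between these arrays, which may be partly technical. No table used here pairs the probes with genes: the gene name repeats the probe ID, the description is "Unknown" and the coordinate is "unmapped" for every probe. The probes are therefore named by ID, and neither the tissue label nor any cell type could be set against its marker genes.

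AOM is turned in the body into a compound that alkylates DNA, and a single dose seeds mutated epithelial cells in the colon. DSS strips the colonic epithelium, which lets gut bacteria reach the mucosa and draws in neutrophils and monocytes. When plain water returns the epithelium regrows over the ulcers and much of the acute response fades, and repeated cycles of injury and repair drive the mutated cells to form tumours. The 2-week samples stand at the end of the first DSS course, and by the stated schedule no other group was taken straight after DSS drinking.

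The probes are DNA 60-mers synthesised on the slide, and their sequences are the only handle on what each one detects. The first 6 below are from the 8 probes with the widest gap between 2 weeks and every other time (A_51_P167292 and A_55_P2034195 of the 8 are not printed), and the last belongs to the probe with the largest fitted change at 10 weeks against 0 weeks, all as the array files give them, 5′ to 3′.
A_51_P416669: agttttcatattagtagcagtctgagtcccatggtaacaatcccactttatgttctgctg
A_51_P319180: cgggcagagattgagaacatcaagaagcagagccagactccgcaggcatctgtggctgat
A_52_P430886: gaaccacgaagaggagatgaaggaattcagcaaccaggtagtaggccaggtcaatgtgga
A_55_P2006296: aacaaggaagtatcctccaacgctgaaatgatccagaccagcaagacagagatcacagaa
A_51_P487073: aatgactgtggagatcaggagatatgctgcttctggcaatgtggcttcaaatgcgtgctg
A_51_P255699: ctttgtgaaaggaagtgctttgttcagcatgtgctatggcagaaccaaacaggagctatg
A_66_P106131: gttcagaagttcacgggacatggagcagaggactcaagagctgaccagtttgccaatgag
Each of these 7 reads through in at least 1 of its 3 forward frames without a stop codon (TAA, TAG or TGA). That is a common property: 93 of the 113 members (82.3%) had such a frame, against 84.6% of the other catalogue probes with a 2-week mean of at least 6 and 79.6% of all catalogue probes. On the opposite strand the shares were 74.3%, 81.9% and 78.1%.

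Some members shared sequence with another probe, and such pairs show whether probes for like sequences followed each other. In the first pair below both probes are members, and the capitals mark their longest exact shared run of 29 bases; 51 of 56 aligned bases match.
A_55_P2007496: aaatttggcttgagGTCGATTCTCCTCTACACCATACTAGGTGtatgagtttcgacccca
A_55_P2159485: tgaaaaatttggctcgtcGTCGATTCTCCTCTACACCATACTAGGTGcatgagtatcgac
In the second pair only A_52_P398925 is a member, and the capitals mark a shared run of 26 bases; 50 of 60 bases match.
A_52_P398925: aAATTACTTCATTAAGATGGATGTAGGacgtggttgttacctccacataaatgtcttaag
A_52_P425092: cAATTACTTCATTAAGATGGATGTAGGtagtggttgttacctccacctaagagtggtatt
The 2 members of the first pair varied together over the arrays. At 2 weeks A_55_P2007496 read 7.53, 6.28 and 6.85 and A_55_P2159485 read 9.61, 8.29 and 8.91, so replicate 1 was the highest and replicate 2 the lowest of both. At 1 week replicate 2 stood out for both, at 5.92 against 4.46 and 4.53 for A_55_P2007496, and at 7.51 against 5.59 and 5.82 for A_55_P2159485. With so much shared sequence they are not independent of each other, although every count here holds both. In the second pair A_52_P425092 had the same course (means of 1.42, 1.93, 5.81 and 4.32 at 0, 1, 2 and 10 weeks) and missed selection only because its 2-week mean was under 6. Another pair, not printed here, is less alike in sequence and did not run together. A_55_P2048279, a member, had means of 5.44, 6.27, 7.38 and 5.72. It shares a run of 24 bases with A_55_P2362645, which read 1.49, 1.52, 1.49 and 1.78. Only 31 of their 50 aligned bases match. The readings of A_55_P2362645 were as low as those of members not above background, so it gives no course to compare. In the last pair, also not printed, A_52_P525107 and A_55_P2118520 are both members and share a run of 20 bases. Their means had a like course, at 10.90, 10.71, 12.16 and 10.29, and at 8.97, 8.92, 10.64 and 8.74.

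Beyond such pairs only GC content, short motifs and exact shared runs were looked at here, so other likeness in sequence was not tested. In all, 6 of the 113 shared an exact run of at least 20 bases with another probe on the array. Their median GC content was 43.3%, against 45.0% for the other catalogue probes of like 2-week level. The polyadenylation signal AATAAA was present in 10 members (8.85%), against 8.99% of the catalogue probes of like level and 10.3% of all catalogue probes. On the opposite strand, read as TTTATT, it was present in 3.54% of the members and 3.96% of all catalogue probes. The pentamer ATTTA, the core of the AU-rich elements found in many short-lived cytokine and growth factor mRNAs, was present in 6 members (5.31%), against 6.73% of the catalogue probes of like level and 8.27% of all catalogue probes. On the opposite strand, read as TAAAT, it was present in 7 members (6.19%), against 8.40% and 10.3%. These letters were searched only within the 60 bases of each probe. An exact run of at least 40 bases in the 32851 promoter or 2743 miRNA sequences from RefSeq (GRCm38.p6) was found for 0 members, and the longest run was 36 bases. No set of mRNA sequences was searched, so this does not say what the probes detect.

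Between 48437 and 64594 probes were well above background per array by the scanner software's test, with the lowest number at 2 weeks and the highest at 10 weeks. The 2-week arrays all lay on 1 slide. The 10-week arrays all lay on another slide, scanned on a day of its own. For 2 weeks against the rest, group and slide cannot be told apart, and neither can group, slide and scan day at 10 weeks. The untreated and the AOM-alone arrays also shared no slide with each other. A slide effect therefore cannot be removed from the comparison of AOM alone with untreated tissue either.

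Many probes that were high at 2 weeks were left out for their level at 10 weeks. Of 21293 catalogue probes with a 2-week mean of at least 6, 772 stood at least 1 log2 unit above 0 weeks, 342 also stood at least 1 above 1 week, and in 319 every 2-week array lay above every array of those earlier times. Of these 319, the 10-week mean of 177 was less than 1 below the 2-week mean, and in 77 it was above it. A further 29 had a 10-week mean at least 1 below the 2-week mean, but single arrays of 2 and 10 weeks overlapped. That left the 113, or 0.219% of catalogue probes. The same conditions turned to the other times gave 47 catalogue probes with their peak at 0 weeks, 19 at 1 week and 486 at 10 weeks. Only 5 of the 93857 custom probes met the 2-week conditions, the widest of them with means of 2.03, 2.02, 7.63 and 4.38 at 0, 1, 2 and 10 weeks.

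On the deposited log2 scale the 2-week means of the 113 ran from 6.00 to 14.52 with a median of 7.55. The median of their means was 5.34 at 0 weeks, 5.45 at 1 week and 5.89 at 10 weeks. The gap, that is the 2-week mean minus the highest of the other 3 group means, had a median of 1.37 and ran from 1.00 to 6.16. It was at least 2 in 21 members, at least 3 in 7 and under 1.5 in 65, so most members lay close to the lower limit. The closest inside were A_55_P2072373 with a gap of 1.00 and A_51_P103397 with 1.01, and the closest outside were A_52_P49797 with 0.998 and A_51_P400699 with 0.997. The next highest group was 10 weeks in 57 members, 1 week in 28 and 0 weeks in 28. In bulk tissue, more cells of a type and more RNA per cell cannot be told apart for any of these changes.

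Every member was well above background on all 3 arrays at 2 weeks, and 75 were so on all 12 arrays. Another 17 were not well above background on any array at 0 or 1 week. All 17 were above it on at least 1 array at 10 weeks, 8 of them on all 3 and 9 on 1 or 2. A further 3 had no 0-week and all 1-week arrays above background, and 3 more had no 0-week and 1 or 2 of the 1-week arrays. A_51_P173678 was the only member with no 10-week array above background, and the last 14 missed it on some arrays of a group but not on all. Of the 113, 103 were above background on at least 3 arrays outside 2 weeks, while the other 10 entered the tests below only through the 2-week arrays. Where no array of a group was above background, the log2 values there are readings near the floor and only a lower bound on the fold can be given. The bound sets the mean of the brighter group over the mean, in the dimmer group, of the higher of the probe's own value and the lowest signal counted as above background on that array, on the scaled processed signal.

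The 12 probes with the widest gaps were mostly probes near background at the earlier times. Of the 12, 10 had no array above background at 0 or 1 week, and A_55_P2006296 had none at 0 weeks and 1 at 1 week. For A_51_P416669 and A_51_P167292 even the next highest group had no array above background, so their gaps are taken from floor readings and their places in the order are not exact. Only A_66_P138929 was above background throughout. It read 5.44, 5.61 and 5.53 at 0 weeks, 5.44, 5.44 and 5.48 at 1 week, 7.76, 8.17 and 8.43 at 2 weeks, and 4.99, 5.37 and 5.35 at 10 weeks. Its 2-week mean of 8.12 ± 0.34 (SD, n = 3) was 6.06-fold the next highest group mean, and the arrays of the other 3 times all lay within 1 narrow band.

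A_51_P416669 had the widest gap (6.16) and also the widest spread among the 2-week arrays. It read 8.88, 11.54 and 4.98 at 2 weeks. At 0 weeks it read 1.51, 1.47 and 3.00, at 1 week 1.95, 2.93 and 2.03, and at 10 weeks 1.48, 1.42 and 3.46. Only 1 of the 9 arrays outside 2 weeks, at 10 weeks, was above background. Its mean at 2 weeks was at least 28.6-fold higher than at 0 weeks and at least 27.5-fold higher than at 1 week, but replicate 3 alone stood far lower than the other two.

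A_51_P319180 and A_55_P2034195 had the same order of 2-week arrays. A_51_P319180 read 7.36, 9.27 and 6.51 at 2 weeks and A_55_P2034195 read 6.19, 9.58 and 4.95, with replicate 2 the highest and replicate 3 the lowest. A_51_P319180 was at least 17.1-fold and A_55_P2034195 at least 9.27-fold higher at 2 weeks than at 0 weeks. At 10 weeks they read 4.34, 4.38 and 3.73, and 3.93, 3.42 and 3.81, with little spread. A_51_P167292 ran otherwise, at 8.39, 6.08 and 6.77 at 2 weeks with replicate 1 the highest, and was at least 10.9-fold higher than at 0 weeks and at least 10.5-fold higher than at 1 week.

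A_52_P430886 and A_55_P2006296 spanned 0.74 and 0.57 log2 units at 2 weeks, against a median range of 0.58 over all members. A_52_P430886 read 10.34, 11.07 and 10.55 at 2 weeks, against 2.77, 3.27 and 2.60 at 0 weeks and 2.83, 1.39 and 3.79 at 1 week, none of those 6 above background. A_55_P2006296 read 10.82, 11.39 and 10.95 at 2 weeks, against 1.56, 1.49 and 2.40 at 0 weeks and 3.35, 4.13 and 4.38 at 1 week. They were at least 141-fold and at least 188-fold higher at 2 weeks than at 0 weeks. At 10 weeks they split the same way: A_52_P430886 read 5.69, 6.09 and 9.88, and A_55_P2006296 read 5.80, 7.01 and 10.35. Replicate 3 thus stood almost at the 2-week level while the other 2 arrays lay well below.

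The remaining leaders were clear of all earlier arrays at 2 weeks. A_51_P487073 read 7.43, 6.89 and 7.21 and was at least 11.8-fold higher than at 0 weeks. A_51_P455326 read 7.18, 7.34 and 6.96 and was at least 11.6-fold higher. A_51_P255699 read 7.74, 6.64 and 8.12 and was at least 14.9-fold higher. For these 3 probes all 18 values at 0 and 1 week lay between 1.46 and 3.45, far below the lowest 2-week array. A_55_P2733612 (5.53, 7.02 and 5.62) and A_55_P2494223 (6.02, 5.83 and 6.77) close the list, at least 5.05-fold and at least 5.71-fold higher at 2 weeks than at 0 weeks.

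The members' highest and lowest 2-week arrays were not spread evenly over the replicates. Replicate 3 was the highest of the 3 arrays in 65 members (57.5%) and replicate 2 the lowest in 66 (58.4%). Among the 21180 other catalogue probes with a 2-week mean of at least 6, replicate 3 was the highest in 36.0% and replicate 2 the lowest in 39.8%. The members' median range over the 2-week arrays was 0.58 log2 units, against 0.29 for those other probes. The selection used these same arrays, and the other probes were matched on 2-week level only. Whether this order or spread is particular to the members was therefore not tested.

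In 0 of the 7 members whose 2-week arrays spanned at least 2 log2 units was replicate 3 the highest. Replicate 2 was the highest in 5 of them: A_51_P416669, A_55_P2034195, A_51_P319180, A_55_P2797252 (6.91, 9.17 and 5.37) and A_55_P2744007. Replicate 1 was the highest in A_51_P167292 and in A_52_P429450 (7.84, 5.78 and 5.67). Replicate 2 was the lowest of the 3 only in A_51_P167292. By contrast, 95 of the 113 members spanned less than 1 log2 unit at 2 weeks.

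Only 3 members were spotted 10 times on each array, and they were picked for that reason. For A_55_P2021689 the SD between the 10 spots of an array was 0.063 to 0.082 at 2 weeks and 0.088 to 0.14 at 1 week, while the SD between the 3 arrays was 0.18 and 1.15. Its 1-week arrays read 6.04, 8.03 and 6.05. For A_52_P281702 the SD at 2 weeks was 0.061 to 0.11 between spots and 0.27 between arrays. For A_55_P2066778 it was 0.10 to 0.11 and 0.13 at 2 weeks, and at 0 weeks it was 0.16 to 0.21 between spots and 0.19 between arrays, so there the spots differed as much as the arrays.

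The first comparison, AOM alone against untreated tissue, asks whether the members had moved before any DSS. The selection shaped it too, because it left out probes already near their 2-week level at 1 week. Asking for at least 1 above 1 week took the probes raised over 0 weeks from 772 to 342. The counts therefore describe the members and no more. At an adjusted p under 0.05, 2 of 113 members rose at 1 week and 0 fell, by limma across 62388 probes with Benjamini-Hochberg adjustment. Over all tested probes 0.365% rose and 0.178% fell, 0.543% in all. The median change was 0.05 log2 units over the members and -0.01 over all tested probes. At an unadjusted p under 0.05, 18 members were higher (15.9%, against 8.61% of all tested probes) and 4 lower (3.54%, against 8.38%). Of the 103 members above background on at least 3 arrays outside 2 weeks, 17 were higher and 4 lower, against 8.63% and 8.42% of such probes.

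A_51_P159453 was 1 of the 2. It read 7.04, 7.79 and 7.57 at 0 weeks, 9.42, 9.62 and 9.33 at 1 week, 12.01, 11.11 and 12.18 at 2 weeks, and 9.25, 9.29 and 9.92 at 10 weeks. The 4 groups do not overlap except for 1 week and 10 weeks. At 1 week it was higher than at 0 weeks by 2.06 log2 units (SE 0.25, limma adjusted p = 0.0218).

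The other was A_55_P1963960, which first came above background at 1 week. It read 2.25, 3.72 and 1.94 at 0 weeks, none of them above background, then 5.34, 5.39 and 4.90 at 1 week, 6.78, 6.72 and 6.98 at 2 weeks, and 5.33, 5.73 and 5.45 at 10 weeks. At 1 week it was at least 2.81-fold higher than at 0 weeks (limma adjusted p = 0.0371). Both calls rest on single arrays: leaving out 0-week replicate 1, 1-week replicate 2 or 1-week replicate 3 leaves 0 members called, with limma adjusted p-values of 0.0620 to 0.132 for the 2 probes, and for A_55_P1963960 leaving out 1-week replicate 1 ends the call too (limma adjusted p = 0.0688).

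The second comparison, tumour-labelled tissue at 10 weeks against untreated tissue, asks how far the 2-week rise had gone by then. The same 0- and 10-week arrays entered the selection through their distance from 2 weeks, so the counts describe the members and no more. At 10 weeks 44 members stayed above 0 weeks, 6 had dropped below it and 63 did not pass the test, by limma at an adjusted p under 0.05. Over all tested probes 21.0% were higher and 9.55% lower at 10 weeks (30.6% in all), against 44.2% of the members called. The 10 members that entered the test only through the 2-week arrays are in these counts. With the test run over the 61610 probes above background on at least 3 of the 9 arrays outside 2 weeks, an alternative added after seeing the data, 39 of the other 103 members were higher and 6 lower. Of those 61610 probes 30.9% were called in either direction. Among catalogue probes alone 6130 of 33173 tested were higher and 4641 lower. The median change was 0.53 log2 units over the members, 0.23 over all tested probes and 0.10 over the catalogue probes.

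The split depends on the scaling of the arrays. It was 44 higher and 6 lower as scaled here, 34 and 14 with the percentile taken over all probes, 35 and 12 with quantile normalization or with the deposited values, 37 and 9 with cyclic loess, and 29 and 13 after normexp background correction. These scalings set the median change of all tested probes between -0.12 (percentile over all probes) and 0.23 (as scaled here). The share of all tested probes called in either direction ran from 25.2% to 30.6% over the 6 scalings. Under all 6, 24 members (21.2%) were called higher, against 7.04% of all tested probes, and 6 (5.31%) lower, against 8.46%, and 0 were called in opposite directions. Of the 103 members above background on at least 3 arrays outside 2 weeks, 22 were higher and 6 lower, against 7.08% and 8.53% of such probes. On each of the 6 the members' median lay above that of all tested probes, by the narrowest margin after normexp correction (0.10 against -0.00).

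Of the 44 members still raised at 10 weeks, 19 had no 0-week array above background, and 18 were above background on every array. A share of the rise that remained at 10 weeks can be measured only where the levels themselves were, which holds for 78 members with every array of 0, 2 and 10 weeks above background. In the 19 of these called higher, the share of the log2 rise from 0 to 2 weeks that remained at 10 weeks had a median of 46.6%, with a range of 11.2% to 57.8%. In the 53 not called it had a median of -11.0%, where a negative share means a 10-week mean below the 0-week mean. Over all 78 the median was 2.32%, and at least 50% remained in 6. These shares use the deposited values, whereas the calls use the scaled processed signal. The median 10-week change of all tested probes was 0.01 log2 units on the deposited values and 0.23 as scaled for the tests. Small shares can therefore differ in sign from the fitted change, as for A_66_P138929 (share -11.0%, fitted change 0.08).

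A_66_P106131 had the largest fitted change. It read 5.03, 4.19 and 4.56 at 0 weeks, 5.63, 5.64 and 6.32 at 1 week, 13.28, 12.91 and 13.12 at 2 weeks, and 10.89, 11.93 and 11.25 at 10 weeks. At 10 weeks it was above 0 weeks by 6.80 log2 units (SE 0.33, limma adjusted p = 1.14e-05), and 79.4% of its rise remained by these readings, with 2 of the 3 arrays at 0 weeks above background. Its group of 10-week arrays lay between the 1-week and the 2-week arrays without touching either.

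A_55_P2006296 and A_52_P430886, with the split 10-week arrays given above, had no 0-week array above background, so only bounds are given. A_55_P2006296 was at least 19.2-fold higher at 10 weeks than at 0 weeks (limma adjusted p = 0.00193). A_52_P430886 was at least 13.8-fold higher (limma adjusted p = 0.00746). Both stayed called without 10-week replicate 3 (limma adjusted p = 0.000502 and 0.00507), although their bounds rest in part on that array. After normexp correction A_52_P430886 was not called (limma adjusted p = 0.0797).

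The 6 members that fell below the untreated level were all above background on every array. Their 2-week means stood above 0 weeks by a median of 1.17 log2 units, against 2.15 in the 19 higher members with measured levels. The selection sets part of this difference. It asks for 2 weeks to stand at least 1 above 10 weeks, so a member still raised at 10 weeks must have risen further. A_51_P102987 read 10.01, 9.99 and 9.98 at 0 weeks, 9.33, 9.53 and 9.63 at 1 week, 10.98, 11.07 and 11.29 at 2 weeks, and 8.59, 8.20 and 9.46 at 10 weeks. Its 10-week arrays all lay below its 0-week arrays, by 1.26 log2 units in the fit (a change of -1.26, SE 0.28, limma adjusted p = 0.00988).

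A_51_P515605 had the same order of group means. It read 13.39, 13.63 and 13.49 at 0 weeks, 13.48, 13.26 and 13.12 at 1 week, 14.16, 14.67 and 14.75 at 2 weeks, and 12.25, 13.21 and 12.36 at 10 weeks. Its change at 10 weeks against 0 weeks was -1.12 (SE 0.25, limma adjusted p = 0.0101). A_55_P2151868 read 5.09, 5.82 and 5.38 at 0 weeks, 5.37, 5.81 and 5.25 at 1 week, 6.32, 6.60 and 6.86 at 2 weeks, and 3.71, 4.11 and 4.40 at 10 weeks. Its change was -0.89 (SE 0.24, limma adjusted p = 0.0232), a call lost without 0-week replicate 2 (adjusted p = 0.0708), 10-week replicate 1 (0.0770) or 10-week replicate 2 (0.0656). In these 3 probes the 4 times thus ran from 2 weeks at the top to 10 weeks at the bottom.

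The third comparison sets 10 weeks against AOM alone, and shares its 10-week arrays with the second. Its 1- and 10-week arrays entered the selection too, so these counts also only describe the members. Here 29 members were higher at 10 weeks and 5 lower, by limma at an adjusted p under 0.05. Over all tested probes 16.0% were higher and 7.20% lower (23.2% in all). The median change was 0.36 log2 units over the members and 0.24 over all tested probes. With the percentile over all probes 20 were higher and 11 lower, and the other scalings gave 21 and 10 (quantile normalization), 20 and 10 (deposited values), 21 and 6 (cyclic loess), and 18 and 6 (normexp correction). Over the 6 scalings, 16.2% to 23.2% of all tested probes were called in either direction. Over the 103 members above background on at least 3 of the 9 arrays, with the test run on such probes alone, 25 were higher and 5 lower. Of all such probes 23.6% were called in either direction. Against both 0 weeks and 1 week, 27 members (23.9%) were higher and 4 (3.54%) lower, where 10.5% and 5.73% of all tested probes were so. Of the 103 members above background on at least 3 of the 9 arrays, 24 were higher and 4 lower, against 10.5% and 5.77% of such probes. Both comparisons share the 10-week arrays.

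A_66_P106131 was higher by 5.50 log2 units (SE 0.33, limma adjusted p = 2.98e-05). A_52_P398925, the member of the second sequence pair, was also called. It read 1.37, 1.36 and 2.65 at 0 weeks, 1.43 ± 0.06 (mean and SD, n = 3) at 1 week, 7.96, 8.12 and 7.33 at 2 weeks, and 5.70, 6.90 and 5.78 at 10 weeks. It was above background on no array at 0 or 1 week and on all arrays at 2 and 10 weeks. At 10 weeks it was at least 6.51-fold higher than at 1 week (limma adjusted p = 9.54e-05). A_52_P430886 was at least 13.0-fold higher (limma adjusted p = 0.0103), and stayed called without 10-week replicate 3 (limma adjusted p = 0.00697), but was not called after normexp correction (limma adjusted p = 0.0910).

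Among the 5 that were lower at 10 weeks than at 1 week, A_51_P396570 changed by -1.01 (SE 0.25, limma adjusted p = 0.0213), A_55_P2151868 by -0.93 (SE 0.24, limma adjusted p = 0.0258) and A_51_P515605 by -0.91 (SE 0.25, limma adjusted p = 0.0289). A_51_P396570 read 7.71, 7.93 and 7.96 at 0 weeks, 7.90, 8.21 and 7.96 at 1 week, 8.61, 9.38 and 9.15 at 2 weeks, and 6.34, 6.75 and 7.47 at 10 weeks. Its 10-week arrays lay below all 6 arrays of 0 and 1 week. These 3 calls are each lost when single arrays are left out: 1-week replicate 2 or 10-week replicate 1 for all 3 (adjusted p = 0.0645 to 0.0919 for A_51_P396570, A_55_P2151868 and A_51_P515605), 10-week replicate 2 for A_51_P396570 and A_55_P2151868, and 1-week replicate 1 or 10-week replicate 3 for A_51_P515605. The call of A_51_P515605 is also lost under 4 of the 6 scalings, with changes of -0.60 to -0.68.

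The members' median SD was 0.41 log2 units at 10 weeks, against 0.26, 0.29 and 0.30 at 0, 1 and 2 weeks. The median range over the 10-week arrays was 0.78 log2 units, and it was at least 2 in 8 members. Replicate 3 was the highest 10-week array in 43 members, replicate 2 in 47 and replicate 1 in 23. Such 10-week values were not taken over other probes, so whether this spread is particular to the members was not tested. Besides A_55_P2006296 and A_52_P430886, A_51_P508838 had 1 high array in replicate 3 (3.59, 1.51 and 6.26). A_51_P455326 (4.40, 6.22 and 2.77) and A_55_P2733612 (2.45, 5.20 and 2.35) were highest in replicate 2.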

How the data were processed

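Per the file headers, the authors extracted each spot's intensity with Agilent Feature Extraction 10.7.1.1, and the deposited processed signal is a background-subtracted intensity. A further deposited table holds a log2 value for each probe and array, whose normalization is not given in the sources used here. Its columns have equal quantiles (median 2.92 in each) and correlate with the matching array's log2 processed signal at 0.995 or more, so it was taken as quantile normalized. The selection and the levels come from that table.

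For tests, control and flagged spots were dropped, the spots of a probe averaged, and each array's log2 processed signal set relative to the 75th percentile of that array, taken over 42343 probes that were well above background throughout. Probes above background on at least 3 arrays (62388) were fitted with limma 3.58.1 in R 4.3.3 on the 9 arrays of 0, 1 and 10 weeks. The 2-week arrays were left out because the selection used them. Slide was tried as a random block, with a fitted correlation of -0.054. As no slide held more than 1 group, this block cannot remove a slide effect from a comparison. The script was tested on simulated data. No probe was saturated. The 3 arrays per group limit the precision, and levels of different probes are not compared. The members and the lists were chosen with earlier results of these data known. Gene and cell type marker lists could not be used, as no probe could be named. Named probes are the 12 with the widest gap, those nearest the limit, and the 3 largest called changes in each direction of each comparison. Others named (shared sequence, 10 spots, wide ranges) were picked after their values were seen.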

Additional observations from a re-analysis of the deposited data

How the results depend on the processing

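Counts for 1 week against 0 weeks (2 members) were small and moved most: 0 with no filter, with the 2 groups alone or with a replicate block, 5 with probes above background on all 9 arrays or with all 12 arrays in the fit, and 0 to 3 when 1 array was left out. Of all tested probes, 0.0208% to 1.45% were called under these settings. For 10 weeks against 0 weeks (50) the count was 30 with probes above background on all 9 arrays, where 75 members remained to be tested, 57 with slide as a random block, and 38 to 48 when 1 array was left out. Of all tested probes, 33.1%, 34.2% and 19.5% to 25.5% were called under the same settings. For 10 weeks against 1 week (34) it was 22 with no filter, 20 of 75 with probes above background on all 9 arrays, 39 with slide as a random block, and 25 to 28 when 1 array was left out. The shares of all tested probes were 9.1%, 27.2%, 27.3% and 12.6% to 20.3%. With probes above background on all 9 arrays, members were thus called here about as often as all tested probes. The counts with the slide block are no check on slide effects, since each slide held a single group. The number of members (113) was 51 after normexp correction, 84 with the scaled processed signal, 21 with a gap of at least 2, 242 with no minimum level, and 102 to 137 when 1 array was left out. Their median gap (1.37) was 0.86 after normexp correction and 1.28 to 1.46 when 1 of the 2-week arrays was left out. Among the 14 calls of named probes, 224 of 259 alternatives kept the call, 35 lost it and 0 turned its direction; the causes were not tested.

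No pairing by replicate number was seen: same-numbered arrays correlated at -0.070 to 0.19 in their deviations from the group means, 1 of 9 pairs above 0.1. Differently numbered arrays correlated at -0.23 to 0.20, with 2 of 18 pairs above 0.1. Such weak correlations cannot settle whether the numbers stand for a pairing. With the replicate block the counts were 0, 53 and 32 for the 3 comparisons, against 0.0224%, 28.5% and 20.4% of all tested probes.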
